A study of Ovis aries with 6 samples.

Results

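The regions described here are the flanks of DNA methylation valleys in sheep perirenal fat, the stretches of up to 5 kb on each side of a valley. DNA methylation valleys (DMVs) are stretches of several kilobases in which nearly all CpG sites are unmethylated while the surrounding genome is highly methylated. In mammals they are known to lie over genes that control development, and many carry Polycomb marks in tissues where those genes are silent. Their borders are of interest because a valley can widen or narrow when methylation moves in from, or recedes into, the flanks. Perirenal fat of sheep is brown, heat-producing fat before birth and turns into white, storing fat in the weeks after it.

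DNA of this fat from Merino sheep was examined by whole-genome bisulfite sequencing, which reads a methylated cytosine as C and an unmethylated one as T. The fetal group was 3 fetuses taken at 132 days after conception, from ewes on a maintenance diet, with term at 150 days. The lamb group was 3 lambs labelled as 89 days after birth (80 days in the text describing the series). All 6 were separate wild-type animals without treatment, and fetuses and lambs differ in everything that comes with birth, feeding and age. Library tags also follow the stage (TV in the fetal libraries, VEH in the lamb libraries), so that stage and whatever those tags stand for cannot be told apart. No gene positions on the files' genome build were used here, so the tissue was not checked against marker genes and the flanks are named by position alone (Oar_v3.1).

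The deposited lists hold 512 fetal and 461 lamb DMVs on chromosomes 1 to 26. Merging them gave 552 valleys, 411 of them listed in both stages, 100 in the fetal list alone and 41 in the lamb list alone. They measured 5000 to 25900 bases, with a median of 6200. These valleys have 1104 edges and therefore 1104 flanks, out of 488891 regions when every 5 kb window of the autosomes outside valleys and flanks is counted as well. Of the flanks, 968 were full 5 kb stretches. The other 136 were cut short because another valley lay close by, and 52 of those were under 500 bases. Where 2 flanks met, each base was counted with the nearer edge. Chromosome 2 held the most flanks (114) and chromosome 26 the fewest (10).

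The flanks cover 5.005 Mb and 79123 CpG positions. CpGs entered the levels if no animal had fewer than 5 reads there, which left 23390 flank CpGs, or 29.6% of those listed, against 24.7% of autosomal CpGs. Reads per flank CpG ranged from 5.48 to 8.58 across the animals. At least 1 used CpG was present in 1037 flanks, and 931 flanks with 5 or more were tested one by one. The level of a region is the number of reads showing C divided by all reads over its CpGs, in percent.

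Flanks of valleys were far less methylated than the genome around them, and the level did not simply climb with distance. Fetal animals 1 to 3 had flank levels of 50.3%, 50.4% and 49.9%, and lambs 1 to 3 had 50.3%, 52.2% and 50.9%. Inside the valleys it was 5.72% ± 0.201 (SD, n = 3) in the fetal animals and 6.62% ± 0.267 (SD, n = 3) in the lambs. Autosomal DNA outside valleys, flanks and every listed unmethylated or low-methylated region stood at 79.4% ± 0.198 and 79.8% ± 1.06 (SD, n = 3 each). The flanks therefore sat between both, 44.5 ± 0.535 points above the valleys and 28.9 ± 0.439 points below the outside level (SD, n = 6), with the same sign in 6 of 6 animals. Both are descriptions without a test, since the valleys were listed from these reads and the outside level leaves out listed unmethylated and low-methylated bases that the flanks keep (32.0% of flank bases).

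By distance, the largest part of the rise was already behind the edge. From 500 bases inside the valley inward, the mean level of the 6 animals stayed between 4.35% and 5.44%. In the last 500 bases inside the edge it was 18.8% ± 1.27 (SD, n = 6), and in the first 500 bases outside it was 54.4% ± 1.13. The level then went down again, to 50.4% ± 1.05 between 500 and 1000 bases and to 45.1% ± 0.763 between 1500 and 2000 bases. Only beyond 4 kb did it pass the level next to the edge, with 55.1% ± 1.49 and 56.7% ± 0.734 in the last bins of 500 bases. It was 61.5% between 5 and 10 kb, 65.1% between 10 and 20 kb and 69.6% between 20 and 50 kb. With bases of listed unmethylated and low-methylated regions left out, those 3 stretches stood at 78.2%, 79.2% and 79.9%, beside an outside level of 79.6% on the same basis (mean of 6).

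**Figure D1:**
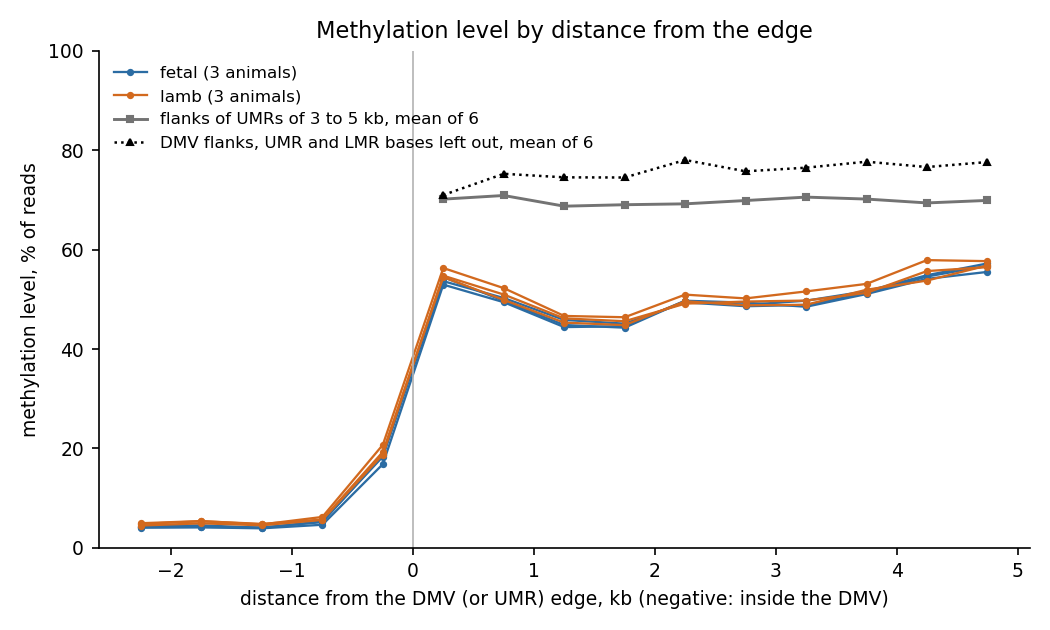
Methylation level in bins of 500 bases against distance from the valley edge in kb, 1 line per animal (blue fetal, orange lamb), with the flanks of unmethylated regions of 3 to 5 kb (grey, mean of 6) and the valley flanks without bases in listed unmethylated or low-methylated regions (dotted, mean of 6). All 6 animals rise from under 7% to over 52% across the edge and dip between 1 and 2 kb, while the grey line stays between 68.7% and 70.9%.

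The CpGs of the first 500 bases were mostly partly methylated. Over the reads of all 6 animals, 69.7% of the 2429 used CpGs in that stretch had a level between 20% and 80%, 10.0% lay under 20% and 20.2% lay over 80%. Between 1 and 2 kb outside, 34.5% of CpGs lay under 20% and 41.6% between 20% and 80%. Inside the valleys 92.8% of CpGs lay under 20%, and more than 5 kb away from any valley 53.0% lay over 80%. The dip beyond the edge thus goes with a larger share of nearly unmethylated CpGs. CpGs were sparser outside the edge than inside the valley. There were 14.0 per kb in the first 500 bases, 16.6 per kb between 1500 and 2000 bases and 43.8 per kb between 1000 and 1500 bases inside. Between 20 and 50 kb from the edge there were 14.1 per kb, close to the first 500 bases. The edges themselves were set by the authors' lists from these same animals, so the size of the step at the edge is a description and not a test.

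Unmethylated regions (UMRs) are CpG-rich stretches with almost no methylation, usually at promoters, and low-methylated regions (LMRs) are CpG-poor stretches of intermediate methylation, often distal regulatory DNA. The authors' lists of both were merged over the stages. A UMR ran across the edge and out of the valley at 830 of the 1104 edges (75.2%), by a median of 772 bases and an interquartile range of 148 to 3351 bases. UMRs covered 27.4% of all flank bases, from 51.8% of the first 500 bases down to 15.0% of the last. A separate UMR began within 5 kb of the edge in 200 flanks. Only 167 flanks held no UMR or LMR base, whereas 157 lay wholly inside UMRs, 53 of these at the full 5 kb.

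How far the UMR ran out set apart 4 kinds of flank, described here without a test because the lists come from the same reads. In the 274 flanks with no UMR over the edge, the first 500 bases already stood at 72.5% ± 0.467 (SD, n = 6) and the whole flank at 66.3%. In the 360 flanks with a UMR running out by up to 500 bases, the first 500 bases stood at 58.6% and the next 500 at 67.9%. In the 190 flanks with a run-out of over 500 and up to 2000 bases, the level climbed from 37.1% in the first 500 bases to 55.2% between 2 and 5 kb. The dip was deepest in the remaining 280 flanks, where a UMR ran out by more than 2 kb. There the first 500 bases stood at 34.6% ± 1.72, the stretch from 1 to 2 kb at 12.9% ± 0.749 and the stretch from 2 to 5 kb at 24.1% ± 0.951 (SD, n = 6). CpG density in these 280 flanks went from 11.5 per kb at the edge to 24.0 per kb between 1 and 2 kb, and 103 of them were cut short by another valley. They thus had a rim of partly methylated DNA at the listed edge, with fewer CpGs per kb and higher methylation than the DNA beyond it.

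**Figure D2:**
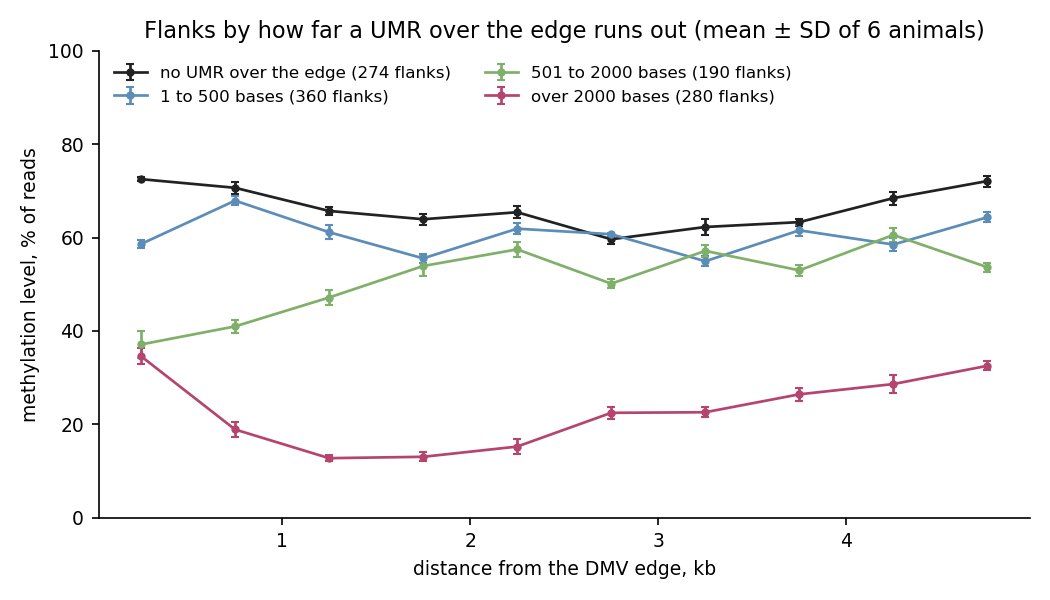
Methylation level of the flanks in bins of 500 bases (mean ± SD of 6 animals) against distance from the edge in kb, for 4 groups of flanks by how far an unmethylated region over the edge runs out. Flanks with a run-out over 2 kb fall from 34.6% next to the edge to about 13% between 1 and 2 kb, while flanks with no such region start at 72.5%.

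Flank bases outside UMRs and LMRs stood below the outside level, most of all next to the edge. With UMR and LMR bases left out, the flanks stood at 75.8% (mean of 6) and differed from the outside level by -3.78 ± 0.234 points (SD, n = 6, lower in 6 of 6 animals). By distance, the flanks then stood at 71.0% in the first 500 bases, 74.5% between 1500 and 2000 bases and 77.6% in the last 500 (mean of 6). With UMR and LMR bases left out on both sides, they also differed by -3.56 ± 0.269 points from the flanks of 21904 UMRs that lay more than 5 kb from any valley (SD, n = 6, lower in 6 of 6 animals). Both differences are given without a test, since the valleys, UMRs and LMRs were listed from the same reads. With UMR bases left out of the UMR flanks alone and kept in the valley flanks, that difference was -25.2 ± 0.332 points, a value that the one-sided removal sets in part and that is given without a test. The flanks of 3207 UMRs of 3 to 5 kb, in which other UMRs were kept, stood at 69.8%, and their level hardly moved with distance. Valley flanks were lower than these by -19.1 ± 0.277 points (SD, n = 6), from -13.2 points in the last 500 bases to -23.9 points between 1500 and 2000 bases. These values are a description without a test, since a UMR flank begins where its UMR ends while UMRs run across most valley edges. The comparison with UMRs of 3 to 5 kb was chosen after the data had been seen.

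Single flanks spread over the whole range. Of the 931 tested flanks, 111 (11.9%) stood under 20% and 153 (16.4%) over 80%, with a median of 62.5% and quartiles of 38.7% and 75%. Among 5 kb windows elsewhere, 1.22% stood under 20% and 38.6% over 80%. The level of a flank went with the number of its bases in UMRs (Pearson r = -0.83, Spearman rho = -0.79, n = 931 flanks) and less with the length of its valley (r = -0.12, rho = -0.20). These correlations are across flanks that share libraries and, in pairs, a valley, and UMRs were listed from the same reads. In 527 full-length flanks with at least 3 CpGs read in every animal in 8 or more of the 10 bins, 288 (54.6%) first exceeded 50% in the first 500 bases and 30 never did. A later bin under 20% followed in 139 of the 527 flanks (26.4%).

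Both sides of a valley were only loosely alike. In 406 valleys with both flanks tested, the levels of the left and right flank correlated with Pearson r = 0.23 and Spearman rho = 0.22, and their median absolute difference was 17.7 points. In 76 of these valleys the sides differed by over 40 points. All left flanks together stood at 51.8% and all right flanks at 49.5% (mean of 6).

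**Figure D3:**
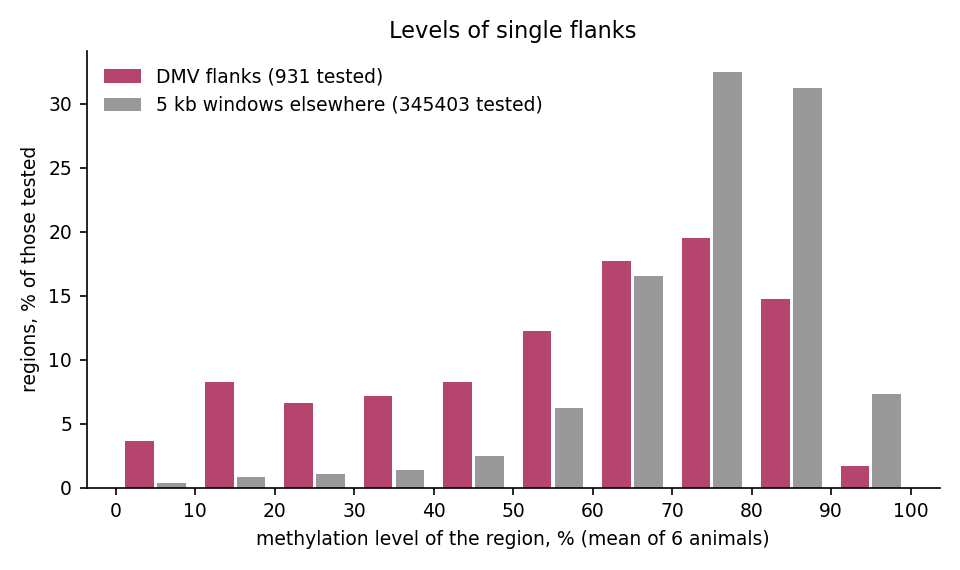
Share of tested regions, in percent, in steps of 10 percentage points of methylation level (mean of 6 animals), for 931 valley flanks (red) and 345403 windows of 5 kb elsewhere (grey). Flanks are spread over all levels with 11.9% under 20%, where 1.22% of the windows lie.

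The longest valleys show the same variety. The longest one listed in both stages, chr15:60768851-60794750 (25900 bases), had a left flank, chr15:60763851-60768850, at 71.7%, 75.4% and 75% in the fetal animals and 83.9%, 75.9% and 71.4% in the lambs. Its right flank is only 500 bases long before the next valley and holds 2 used CpGs. At chr3:97397551-97420850 (23300 bases) the left flank, chr3:97392551-97397550, lay wholly inside a UMR and stood at 25.8%, 21.4% and 22.0% in the fetal animals and 21.9%, 30.9% and 19.4% in the lambs. The left flank of chr18:19942551-19964250, chr18:19937551-19942550, held no UMR base and still stood at 34.2%, 40.3% and 31.4% in the fetal animals and 33.9%, 38.0% and 35.7% in the lambs. The right flank of that same valley, chr18:19964251-19969250, stood at 66.6% ± 3.70 in the fetal animals and 70.1% ± 2.64 in the lambs (SD, n = 3 each). Of the 12 flanks of the 6 longest valleys, 9 could be tested. Their means were higher in lambs in 9 of 9, by 0.559 to 3.48 points, where 55.3% of all tested regions had a higher mean in lambs, but fetal animals and lambs overlapped in each of them and the smallest adjusted p was 0.878 (quasi-binomial test).

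Before and after birth, the flanks as a whole did not differ beyond the spread of the animals. The level was 50.2% ± 0.295 in the fetal animals and 51.1% ± 0.958 in the lambs (SD, n = 3 each), a difference of 0.904 points with overlapping stages (exact two-sided permutation test p = 0.3). With 3 animals against 3 the smallest p is 0.1, so no such comparison of levels can pass a threshold of 0.05. Lamb 2 had the highest level of the 6, and without it the difference was 0.371 points. The difference in the flanks exceeded that inside the valleys by 0.0068 points and that of the outside level by 0.478 points. Both are given without a test, since valleys and the regions left out of the outside level were listed from the same reads. In bins of 500 bases the lamb mean was higher in 10 of 10, by 0.300 to 1.48 points, and the stages overlapped in all 10. Over the first 1 kb as a whole they did not, at 52.01%, 52.19% and 51.26% in the fetal animals and 52.25%, 54.36% and 52.96% in the lambs. The difference was 1.37 points (exact permutation p = 0.1), but fetal animal 2 and lamb 1 lay almost level. In bins of 250 bases the stages did not overlap in 6 of 20, and these bins share the same animals and are not independent. Of all tested regions, every lamb lay above every fetal animal in 6.61% and below in 4.35%. These regions are single flanks or 5 kb windows, whereas each bin pools CpGs over the flanks, so the shares are not on the same basis. The first 250 bases were among those 6 bins, at 52.3%, 52.5% and 51.1% in the fetal animals and 53.8%, 55.9% and 53.2% in the lambs (difference 2.35 points, exact permutation p = 0.1).

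The stages did separate in the part of the flanks that lies in UMRs. Flank bases in UMRs listed in both stages stood at 14.3%, 14.4% and 13.7% in fetal animals 1 to 3 and at 15.2%, 16.2% and 15.1% in lambs 1 to 3. Every lamb lay above every fetal animal, with a difference of 1.39 points. UMRs were listed from the same animals, so the differences in UMR bases are given without a test. Flank bases in fetal UMRs alone differed by 10.4 points and those in lamb UMRs alone by -8.86 points, which the listing itself implies. Over the rest of the autosomes, bases in UMRs of both stages stood at 8.85% ± 0.140 and 9.11% ± 0.0432 (SD, n = 3 each), a difference of 0.257 points, again without overlap. Within each animal, flank UMR bases exceeded those elsewhere by 5.31, 5.63 and 4.94 points in the fetal animals and by 6.08, 7.10 and 6.09 points in the lambs. That excess was thus larger in every lamb, by 1.13 points on average. Valley interiors differed by 0.897 points, also without overlap. In flank bases in no UMR or LMR the stages overlapped, at 75.6% ± 0.238 in the fetal animals and 76.0% ± 1.01 in the lambs (SD, n = 3 each). Bases listed in either stage had been left out there, so this overlap is also given without a test. LMR bases of the flanks also overlapped, at 33.1% ± 0.662 and 33.9% ± 1.09.

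**Figure D4:**
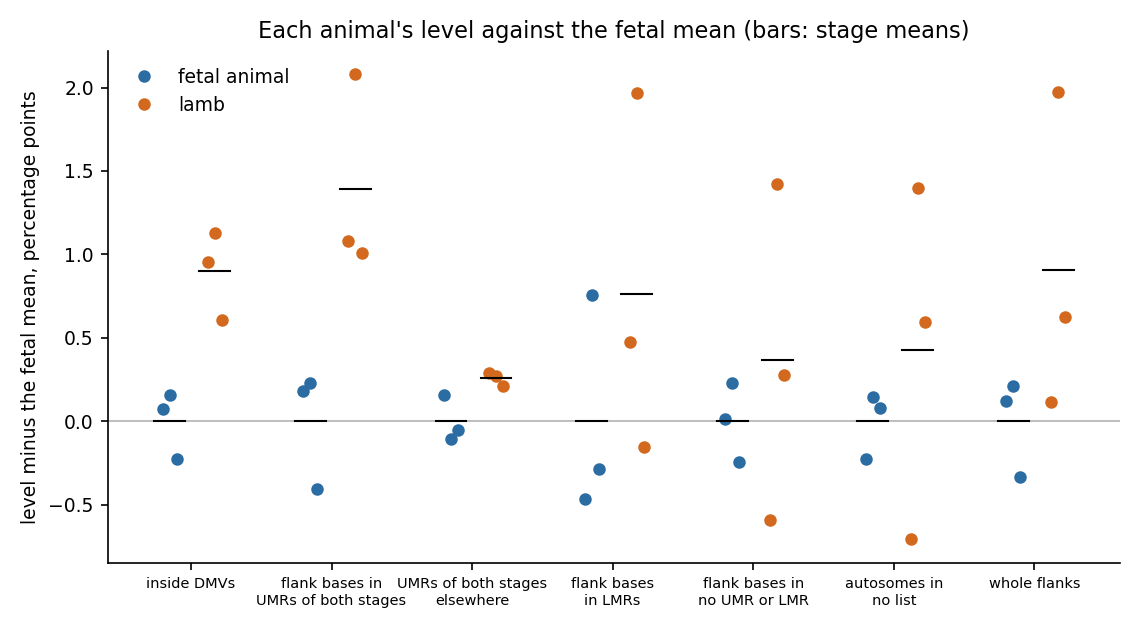
Level of each animal minus the mean of the fetal animals, in percentage points, for valleys, 3 parts of their flanks, unmethylated regions elsewhere, autosomes in no list, and whole flanks (blue fetal, orange lamb, bars stage means). Lambs lie above all fetal animals inside valleys, in the flank bases of unmethylated regions (mean 1.39 points) and in such regions elsewhere (0.257 points), and overlap with them in the other columns.

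By run-out, the stages were apart in some groups of flanks. The 190 flanks with a UMR running out over 500 and up to 2000 bases stood at 50.4%, 50.2% and 50.2% in the fetal animals and 51.1%, 52.8% and 51.7% in the lambs, and their first 500 bases differed by 4.93 points, both without overlap. The 280 flanks with a longer run-out stood at 21.3%, 21.1% and 20.8% against 22.1%, 23.5% and 21.9%, also without overlap, although their first 500 bases overlapped (2.07 points). The 360 flanks with a run-out of up to 500 bases differed by 0.679 points and those with no UMR over the edge by 0.352 points, and both overlapped. Because UMR ends were drawn from the same animals, these differences are given without a test.

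A listed edge lay further in more often in the lamb list than in the fetal list. Of the edges of valleys listed in both stages, 414 were at the same base, 246 within 250 bases, 108 lay further out in the fetal list and 54 further out in the lamb list. Flanks of the 108 edges that were wider in the fetal list were the lowest, at 37.6% ± 1.1 in the fetal animals and 39.2% ± 0.792 in the lambs (SD, n = 3 each). The stages barely missed overlapping there, with the highest fetal animal at 38.61% and the lowest lamb at 38.62%. The last 1 kb inside those edges went from 12.1% ± 0.502 to 17.1% ± 0.759, which the listing itself implies. At the 246 edges within 250 bases of each other, the flanks stood at 52.4% ± 0.147 and 53.3% ± 1.02 and the last 1 kb inside at 11.0% and 13.2%, both without overlap. For these flanks the gap was again narrow, with the highest fetal animal at 52.56% and the lowest lamb at 52.62%. At the 414 edges shared to the base, the flanks stood at 52.6% ± 0.227 and 53.1% ± 1.03 and overlapped, as did the last 1 kb inside at 8.49% and 8.93%. Flanks of the 54 edges wider in the lamb list, of the 200 edges of valleys in the fetal list alone and of the 82 in the lamb list alone also overlapped.

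Each flank was also tested alone, with a quasi-binomial test of its reads fitted over all 346334 flanks and 5 kb windows and adjusted over all of them (Benjamini-Hochberg). Calls needed both 5 points of difference or more and an adjusted p under 0.05. One flank was called, lower in lambs, against a background of 0.0144% of all regions called (50). At an unadjusted p under 0.05 there were 102 flanks, 67 higher and 35 lower in lambs, which is 11.0% of the flanks against a background of 6.44%. The tested flanks had a median of 181 reads per animal and all regions a median of 113, and the part of this in the share was not tested. Every lamb lay above every fetal animal in 71 flanks (7.63%, background 6.61%) and below in 46 (4.94%, background 4.35%), shares close to the background. The lamb mean was higher in 550 flanks (59.1%, background 55.3%). The median difference was 0.69 points over the tested flanks and 0.49 points over all regions.

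The called flank is chr12:76971251-76976250, to the left of the valley chr12:76976251-76982250. It stood at 40.5%, 43.4% and 38.0% in the fetal animals and at 29.1%, 21.4% and 24.3% in the lambs, over 41 CpGs and 319 reads per animal. The difference was -15.7 points with an adjusted p of 0.0149 (quasi-binomial test), and 32 of the 41 CpGs were lower in lambs. The call was lost without fetal animal 1 (adjusted p = 0.0534), without lamb 2 (0.115) or without lamb 3 (0.0505, when 1 other flank, higher in lambs, was called), and with edgeR (0.123) and limma (0.873). The fetal list has 3 separate UMRs in or across this flank (chr12:76971633-76972313, chr12:76973328-76975307 and chr12:76975772-76982100). The lamb list has 1 unbroken UMR over nearly all of it, chr12:76971204-76975923. With all 172 CpGs that had a read in every animal, the difference of the flank was -11.1 points. The drop was then widest between 500 and 1500 bases out, at -19.5 and -22.8 points per 500 bases, and between 2500 and 3000 bases, at -18.8 points. The last 1 kb inside the same valley moved the other way. Over its 15 CpGs with at least 5 reads in every animal, it went from 27.9%, 24.8% and 19.8% in the fetal animals to 37.3%, 30.2% and 30% in the lambs. Over its 50 CpGs with a read in every animal, it went from 14.6%, 12.4% and 12.3% to 22.0%, 24.3% and 20.2%. The lamb list starts this valley further in, at base 76976551. At the minimum of 5 reads, the opposite flank stood at 87.8% ± 0.643 and 85.7% ± 2.66 (SD, n = 3 each) and overlapped.

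Of 490 tested flanks with at least 20 used CpGs, the 5 in each direction with the largest differences and no overlap are given as a description, with no test. The widest gain was at chr6:108306051-108308600, a 2550-base flank wholly in a UMR, with 20.2%, 21.1% and 21.7% in the fetal animals and 31.0%, 37.8% and 29.1% in the lambs (11.7 points). At chr12:3267851-3272850, next to a valley of the fetal list alone, the levels were 50.2%, 46.3% and 53.9% against 59.9%, 64.0% and 60.6% (11.4 points). At chr6:94507251-94512250, also beside a valley of the fetal list alone, they were 47.8%, 55.0% and 50% against 64.1%, 60.9% and 61.0% (11.1 points). The gaps at chr19:55999251-56004250 and chr2:132872751-132877750 were 10.7 and 10.2 points. In the other direction, after the called flank, came chr13:3443751-3448750, beside a valley of the lamb list alone, at 64.0%, 61.3% and 66.2% against 49.5%, 55.8% and 48.3% (-12.7 points). It held no UMR base. The others were chr13:68967151-68972150 (-9.45 points), chr7:29788251-29793250 (-9.29 points) and chr3:208769351-208774350 (-8.90 points). These flanks were picked by size, and most differences were smaller with all CpGs that had a read in every animal. In the same order, the gains were then 7.69, 6.65, 9.73, 11.6 and 5.00 points. The losses after the called flank were -11.4, -4.80, -7.85 and -5.35 points.

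**Figure D5:**
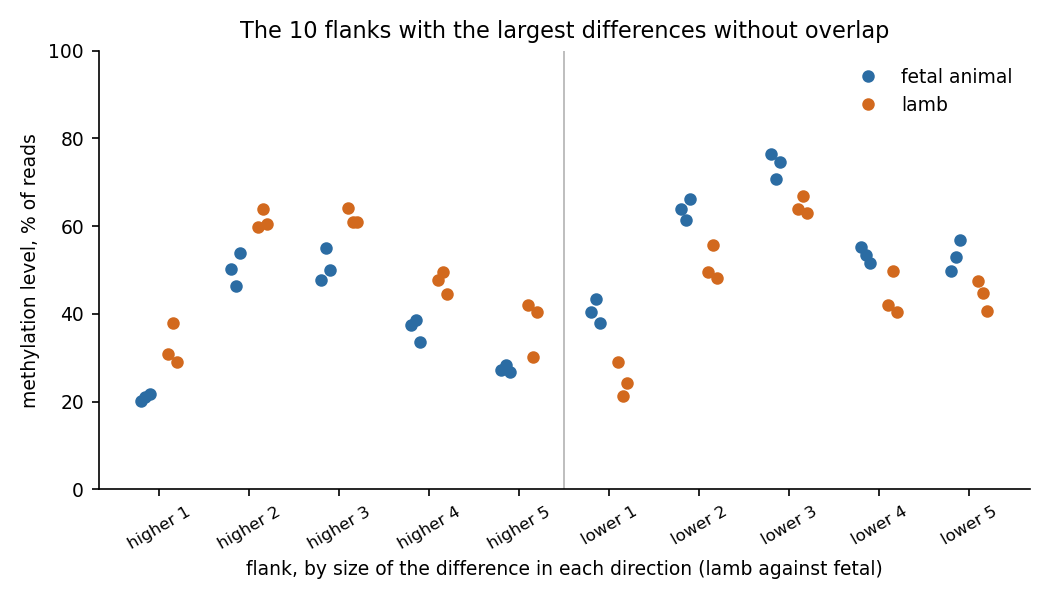
Methylation level in percent of each animal (blue fetal, orange lamb) in the 5 flanks with the widest gain and the 5 with the widest loss in lambs, ordered by size as in the text. The first flank of the lower group is the called one, with fetal animals between 38.0% and 43.4% and lambs between 21.4% and 29.1%.

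The authors' lists of differentially methylated regions (DMRs) touched 13 flanks. A DMR of the hyper list touched 9 flanks (0.815%) and one of the hypo list touched 4 (0.362%), where 0.109% and 0.103% of the 5 kb windows elsewhere touch one. These lists were made from the same animals, so the shares are not tested. Of the 12 DMRs concerned, 11 had a CpG within 250 bases of the edge and 6 reached into the valley. The hyper DMRs had a higher mean in lambs in 8 of 8 and the hypo DMRs a lower one in 4 of 4, over 3 to 21 CpGs with a read in every animal, and the stages did not overlap in 5 and 3 of them. As the DMRs were listed from these same animals, these counts follow in large part from the listing. At the minimum of 5 reads, 3 of the 12 had no CpG left. The hyper DMRs chr2:223493301-223493563, chr4:32063411-32063738 and chr5:55014187-55014294 and the hypo DMR chr10:18363600-18363758 rested on 1 CpG each. That of chromosome 5 differed by -0.17 points. The longest, chr2:134567262-134568330, has 14 CpGs in the flank and 7 inside the valley. Over the 11 of these CpGs that had at least 5 reads in every animal, it stood at 37.8%, 32.3% and 38.0% in the fetal animals and 67.8%, 63.2% and 57.3% in the lambs. At chr19:36787297-36788137 the levels were 44.6%, 28.1% and 37.5% against 60.5%, 63.0% and 74.2%, over 4 used CpGs. The hypo DMR chr1:197819514-197819841 stood at 45.7%, 31.7% and 19.6% against 12%, 6.02% and 18.5%, over 7 used CpGs.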

How the data were processed

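Whole-genome bisulfite sequencing of 6 animals (3 fetal, 3 lamb) was analysed from the read counts per CpG position that the authors deposited: reads showing C and all reads covering the position. Per the submitters' processing notes, BWA, Picard, Oar_v3.1 and hg19 were used, without a stated role for each. The methylation caller and the methods behind the DMV, UMR, LMR and DMR lists were not given in the sources used here. These lists hold 1 set per stage, and the authors deposited them as positions only. A share of Cs left unconverted by bisulfite would raise low levels in a library, and it was not measured here. Reads carry no molecule marks, so read numbers overstate the independent molecules.

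Levels are summed C reads over summed coverage at CpGs with at least 5 reads in every animal. Stages were compared over animals by exact permutation tests, and in the replicate block by exact permutation of the signs of the differences (Python 3.11.15). Regions with at least 5 such CpGs were tested by a quasi-binomial test with dispersions shrunk toward a common value (prior 1.43 with 37.3 degrees of freedom), checked on simulated reads. limma 3.58.1 on log2 ratios (pseudocount 1) and edgeR 4.0.16 on the counts (R 4.3.3) were alternatives. Named flanks are the called ones, then the largest differences without overlap among flanks with at least 20 CpGs (5 per direction), then both flanks of the 6 longest valleys. Sequences and gene names were not used here. The members and lists were chosen with earlier results of these data known.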

Additional observations from a re-analysis of the deposited data

How the results depend on the processing

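The flank level was higher in lambs under all 20 alternatives (0.369 to 1.5 points; 0.371 to 1.3 leaving out 1 animal). The excess of the flank difference over that inside valleys changed sign: -0.0233 without CpGs of high coverage, -0.000541 with equal weight per CpG, -0.148 at edges within 250 bases in both lists, -0.184 with fetal edges alone, -0.529 without UMR and LMR bases, and -0.410 to 0.430 leaving out 1 animal. The edge step differed by 0.199 points between stages, and by 1.39 with lamb edges alone, 3.9 at a minimum of 10 reads (291 flank CpGs), -0.110 with fetal edges, -0.760 without UMR and LMR bases and -0.0549 to 0.573 leaving out 1 animal. Without UMR and LMR bases, the stage difference of flank minus outside was -0.0578 and that of valley minus UMR flanks -0.0541, the latter being -0.364 at a minimum of 10 reads. There, with 135 CpGs, the excess of flank UMR bases over those elsewhere was -0.667 points, whereas it ran from 0.793 to 1.3 leaving out 1 animal. Flank bases in UMRs of both stages gave 1.04 to 1.58 points leaving out 1 animal, with no overlap. Valley minus UMR flanks ran from -25.3 to -25.1 leaving out 1 animal. The bin from 2000 to 2500 bases was -0.225 (without lamb 2) to 0.682 (without lamb 3). Bins without overlap, 0 of 10, became 2 at a minimum of 3 reads, 2 at 1 read, 6 of 20 at 250 bases and 0 to 7 leaving out 1 animal. Called flanks, 1, became 3 at a minimum of 3 reads (the same flank and 2 higher in lambs), 0 at 10 reads, 0 with limma and 0 with edgeR (41 and 86 flanks at an unadjusted p under 0.05), and 0 to 1 leaving out 1 animal, where the 1 without lamb 3 was a different flank, higher in lambs. The cause was not tested.

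Same-numbered animals hardly deviated together (r = 0.0471, 0.0577 and -0.0582 over flanks). Over the 5 kb windows elsewhere, r was 0.0122, 0.0154 and 0.00551, against -0.0118 to 2.83e-05 for animals of different number. The main tests did not pair animals by number. With a replicate block, 1 flank and 64 regions were called, and the flank difference of 0.904 points had p = 0.5 by exact permutation of signs. In the main test without a minimum difference, 52 regions in place of 50 were called, and the called flank was still the only one. Whether a difference of a few points in 1 flank could be detected at about 5 to 9 reads per CpG was not tested.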

Other observations

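The X chromosome carries 4 valleys, which were kept out of the flanks above. Their flanks stood at 48.4%, 48.8% and 49.5% in the fetal animals and 50.9%, 49.8% and 47.8% in the lambs, over 277 CpGs, with overlapping stages. Inside these 4 valleys the level was 5.53% ± 0.576 in the fetal animals and 7.85% ± 0.527 in the lambs (SD, n = 3 each), without overlap.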
